A study of Rattus norvegicus with 6 samples.

Results

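Chemokines are small secreted proteins that attract leukocytes by binding receptors on their surface. In CC chemokines (Ccl genes) the first cysteines of the protein are adjacent, and in CXC chemokines (Cxcl genes) they are separated by a single residue. The genes of this group mainly attract monocytes and lymphocytes. In stromal cells such as tenocytes, the resident cells of tendon, inflammatory chemokine genes are known targets of NFκB, a transcription factor that IL−1β signalling activates, whereas Cxcl12 is known for its expression without a stimulus.

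The group consists of 5 genes chosen by name, with earlier results of these data known. They were looked up by rat Ensembl identifier, and all 5 were found among the 19133 genes of the deposited table. They are Ccl2 (ENSRNOG00000007159), Ccl5 (ENSRNOG00000010906), Ccl20 (ENSRNOG00000015992), Cxcl10 (ENSRNOG00000022256) and Cxcl12 (ENSRNOG00000013589). Their levels were measured by RNA sequencing in rat tenocytes that had been isolated from Achilles tendons of Sprague–Dawley rats with collagenase. The control group (n = 3 libraries) received complete medium, and the IL−1β group (n = 3 libraries) received complete medium to which IL−1β, a proinflammatory cytokine, was added at 50 ng/mL, both for 24 h. The series' design text places this concentration beside the control cells, which it calls unstimulated, and the treatment labels and the methods were followed here. No other agent was given to either group. The methods describe the study's data as coming from independent experiments, without saying whether the 3 libraries of a group came from separate animals or cultures, so the p-values measure the spread between these libraries.

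The values are FPKM, in which the fragments of a gene are divided by its length and by the depth of the library. They can be set side by side between genes as far as that length is the length of the transcript present, which was not tested. Low FPKM values move in steps of a single read, from which whole reads per gene were worked out. For each gene these are the fewest reads that fit, and a common multiple of them in all libraries would fit as well. The fewest reads that fit came to 36507195 to 43099396 per library, with overlapping depths in the groups. Below a floor of 3 reads a level was not regarded as resolved, and intervals and floors cover counting error only. For the comparison, FPKM values were scaled between libraries, 0.1 was added and log2 was taken, and the 12408 genes that reached 0.5 FPKM in 3 or more libraries were tested with limma. A gene was called where the adjusted p was under 0.05 and the absolute log2 fold change over 1. The table lists identifiers without names, and the reference table used here paired 0 of them with symbols. The identity of the cells was therefore not checked against tenocyte or leukocyte marker genes, and the chemokine receptors were not analysed here.

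With IL−1β, 4 of the 5 chemokine transcripts rose, and Cxcl10 was near the limit of detection in both groups. Ccl2 rose 356.0-fold and Ccl20 723.8-fold by mean FPKM, Ccl5 went from almost no reads to a low level, and Cxcl12, already present in the control group, rose about 3.39-fold. Among all tested genes, 5.37% were called higher with IL−1β by the same rule. Since the members were chosen with earlier results of these data known, this share is given for scale and is not a test of the group. For these 4 genes the lowest IL−1β library exceeded the highest control library, as it did for 25.5% of all tested genes. Of the members, Ccl2 and Cxcl12 reached the filter of 0.5 FPKM in all 6 libraries. Ccl5 and Ccl20 reached it only in the IL−1β libraries and so could enter the test only by being high there, and Cxcl10 reached it in none and was not tested. Each value is from whole cultures, in which more cells with a transcript and more transcript per cell cannot be told apart.

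**Figure D1:**
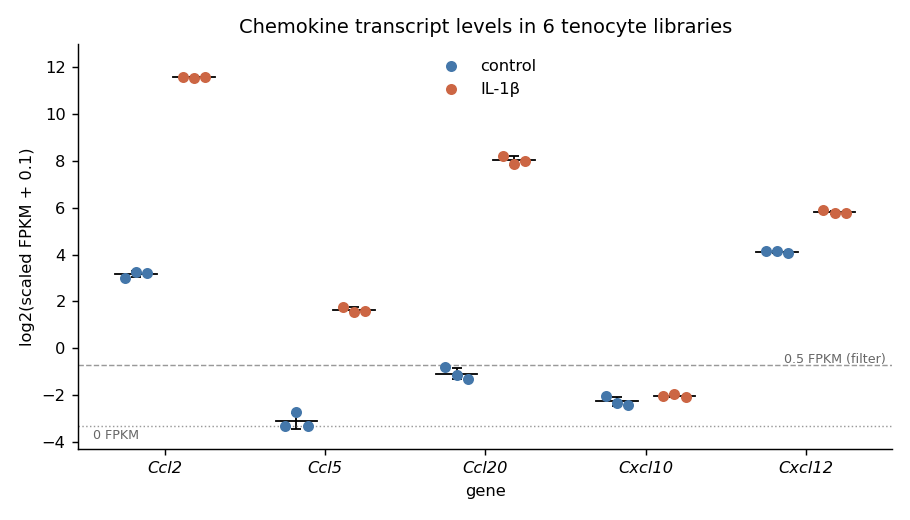
Level of each chemokine transcript as log2(scaled FPKM + 0.1) in each of the 6 libraries, with control libraries in blue and IL−1β libraries in orange; black bars are the group mean and SD (n = 3). The groups are apart for Ccl2, Ccl5, Ccl20 and Cxcl12, and overlap for Cxcl10, which stays under the dashed line at 0.5 FPKM in every library.

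Ccl2, which attracts monocytes through the receptor Ccr2, was the most abundant of the 5 transcripts with IL−1β. It measured 7.78, 9.32 and 9.13 FPKM in control libraries 1, 2 and 3 and 3121, 3062 and 3152 FPKM in IL−1β libraries 1, 2 and 3. The groups were far apart, and even the lowest IL−1β library was 328.6 times the highest control library. The mean went from 8.74 ± 0.843 to 3112 ± 45.6 FPKM (SD, n = 3 each), a ratio of 356.0, with a log2 fold change of 8.41 (standard error 0.066, 95% interval 8.25 to 8.56, adjusted p = 3.6e-09 from limma). Behind these values stood 251 to 319 reads per control library and 96869 to 110539 reads per IL−1β library, so both ends of the ratio were well above the floor. By mean FPKM, Ccl2 ranked 5929 among the 19133 genes without IL−1β and 13 with it, and in the IL−1β group its reads alone made up 0.261% ± 0.0038 of all recovered reads (SD, n = 3).

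Ccl5, which attracts T cells and monocytes, was nearly absent from the control libraries. It was listed at 0, 0.0501 and 0 FPKM in control libraries 1, 2 and 3, which corresponds to 0, 1 and 0 reads at the fewest that fit. In IL−1β libraries 1, 2 and 3 it measured 3.36, 2.93 and 3.04 FPKM, from 68, 69 and 61 reads. Every IL−1β library was thus above the floor and every control library below it. The limma test gave an adjusted p of 9.2e-06, but the log2 fold change of 4.77 (standard error 0.25) depended on the added constant and was 1.99 with a constant of 1 and 7.38 with a constant of 0.01. Taken from these fewest reads, with 1 read over the 3 control libraries and 198 over the 3 IL−1β libraries, the ratio was 197.8, and its exact 95% binomial interval reached from 35.1 to 7853. The level with IL−1β, 3.11 ± 0.222 FPKM (SD, n = 3), remained modest, with 51.6% of all genes lower. The spread between the IL−1β libraries (coefficient of variation 7.14%) was no larger than the 12.3% that counting alone gives at this number of reads.

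Ccl20, the ligand of Ccr6 on Th17 cells, B cells and immature dendritic cells, rose by a larger ratio than Ccl2. Control libraries 1, 2 and 3 held 0.460, 0.347 and 0.304 FPKM, from 14, 10 and 10 reads. IL−1β libraries 1, 2 and 3 held 301.1, 238.7 and 264.2 FPKM, from 8808, 8121 and 7656 reads. No library of either group came near the other group. The mean rose from 0.370 ± 0.081 to 268.0 ± 31.4 FPKM (SD, n = 3 each), with a log2 fold change of 9.11 (standard error 0.14, 95% interval 8.77 to 9.45, adjusted p = 7.4e-08 from limma), which ranked 5 among the tested genes. That limma interval does not cover the choice of the added constant, which is not small beside the control mean. With a constant of 1 the log2 fold change was 7.57 (rank 7), and with 0.01 it was 9.42 (rank 6). The pooled reads gave a ratio of 722.4 with an exact 95% binomial interval of 516.8 to 1043, so the size of the rise is limited by the few control reads. This interval lies within that of Ccl5, so the order of these genes by ratio is not resolved. The IL−1β libraries varied more in Ccl20 (coefficient of variation 11.7%) than in Ccl2 (1.47%), although counting accounts for only 1.11% and 0.314%.

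Whether Ccl20 or Ccl2 rose more can be read from their ratio within each library, which needs neither scaling nor an added constant. Ccl2 exceeded Ccl20 by 16.9, 26.9 and 30.1 times in control libraries 1, 2 and 3 and by 10.4, 12.8 and 11.9 times in IL−1β libraries 1, 2 and 3. Ccl2 was the higher of the pair in every library, and the ratio was lower in all 3 IL−1β libraries, so in these libraries the proportional rise of Ccl20 was the larger. With 3 libraries against 3, an exact two-sided permutation test cannot go below p = 0.10. On the log2 scale the order of the fold changes turned with a constant of 1, at 7.57 for Ccl20 and 8.27 for Ccl2.

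Cxcl12, which acts through Cxcr4 and the scavenger receptor Ackr3 and retains lymphocytes and progenitor cells in tissues, was the most abundant of the 5 transcripts in the control group. It measured 17.0, 17.6 and 16.4 FPKM in control libraries 1, 2 and 3 and 59.6, 56.7 and 56.4 FPKM in IL−1β libraries 1, 2 and 3. The lowest IL−1β library was 3.21 times the highest control library, a small gap beside those of Ccl2 and Ccl20 but a wide one beside the spread. The mean rose from 17.0 ± 0.594 to 57.6 ± 1.78 FPKM (SD, n = 3 each), with a log2 fold change of 1.70 (standard error 0.052, 95% interval 1.57 to 1.82, adjusted p = 7.8e-07 from limma). This is close to the median of 1.67 over the 666 genes called higher, whereas the median over all tested genes was 0.001. With 3495 to 3724 reads in the control and 11270 to 13300 in the IL−1β libraries, it was the best measured of the members in the control group. The counts are per gene and do not tell the transcript isoforms of Cxcl12 apart. Its implied length of 5423 bases enters its FPKM, and so its order and share among the 5 transcripts below.

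Cxcl10, the interferon-inducible ligand of Cxcr3 on activated T cells and NK cells, had values near the floor in both groups, and no change was detectable at this depth. It was listed at 0.137, 0.0963 and 0.0843 FPKM in control libraries 1, 2 and 3 and at 0.142, 0.163 and 0.144 FPKM in IL−1β libraries 1, 2 and 3. The fewest whole reads that fit these values are 3, 2 and 2 in the control and 3, 4 and 3 in the IL−1β libraries, at an implied length of 567 bases; a common multiple of all of them would fit as well. At these fewest reads the pooled IL−1β level has an exact 95% Poisson interval of 0.0722 to 0.277 FPKM, far under the level of Ccl5. The IL−1β values were all above the control values as deposited and overlapped them after scaling between libraries. An exact two-sided permutation test of the scaled values gave p = 0.20, but with 3 libraries against 3 it cannot go below 0.10 and so could not have passed. Without the filter, limma gave an adjusted p of 0.40. At the fewest reads, 2 control libraries lay under the floor of 3 reads and 1 IL−1β library above it, and no fold change is given.

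**Figure D2:**
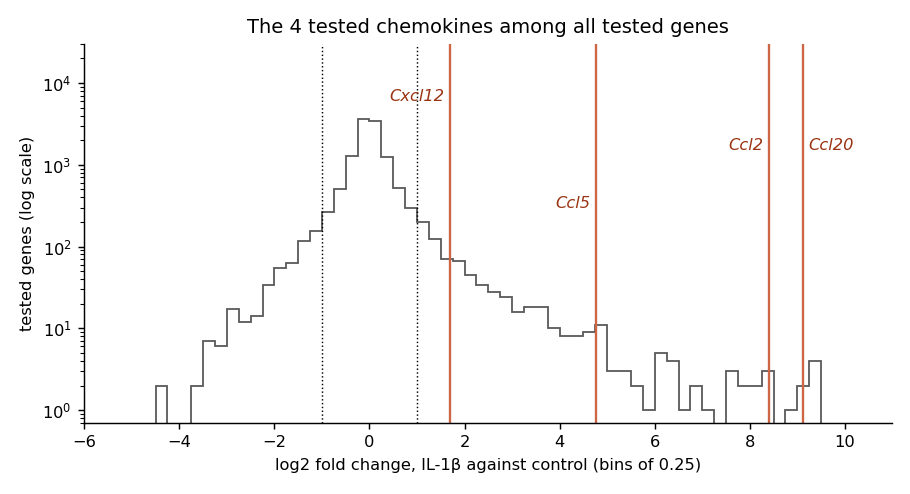
Number of tested genes (log scale) by log2 fold change of IL−1β against control in bins of 0.25, with the 4 tested chemokine genes as orange lines and the fold change thresholds dotted. Ccl2 at 8.41 and Ccl20 at 9.11 lie in the thin right end of the distribution, Ccl5 at 4.77 between them and the bulk, and Cxcl12 at 1.70 near the threshold.

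The order of the transcripts by level differed between the groups. In the control group, Cxcl12 (17.0 FPKM) came first, then Ccl2 (8.74 FPKM) and, much lower, Ccl20 (0.370 FPKM), each apart from the next in all 3 libraries. Cxcl10 (0.106 FPKM) and Ccl5 (0.017 FPKM) followed, both at or under the floor at the fewest reads and so without a resolved order. In the IL−1β group, the order was Ccl2 (3112 FPKM), Ccl20 (268.0 FPKM), Cxcl12 (57.6 FPKM), Ccl5 (3.11 FPKM) and Cxcl10 (0.150 FPKM), and the values of neighbours in this order did not overlap. Within single libraries, Ccl2 stood at 0.458, 0.530 and 0.556 of Cxcl12 in the control group and at 52.3, 54.0 and 55.9 times Cxcl12 in the IL−1β group. The pair thus changed places in every library, with Cxcl12 above Ccl2 in all 3 control libraries and below it in all 3 IL−1β libraries. Ccl20 likewise lay below Cxcl12 in each control library and between 4.21 and 5.05 times above it in the IL−1β libraries.

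The summed level of the 5 transcripts went from 26.2 ± 1.06 to 3441 ± 69.2 FPKM (SD, n = 3 each). Of this sum, Cxcl12 held 64.8% ± 1.92 without IL−1β and 1.67% ± 0.046 with it, although its own level rose. Ccl2 went from 33.3% ± 2.35 to 90.5% ± 0.810 of the sum, and Ccl20 from 1.42% ± 0.348 to 7.78% ± 0.784. The chemokine transcripts measured here thus passed from a majority of Cxcl12 to a large majority of Ccl2. Ccl5 held 0.090% ± 0.0052 and Cxcl10 0.0044% ± 0.00043 of the sum with IL−1β.

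**Figure D3:**
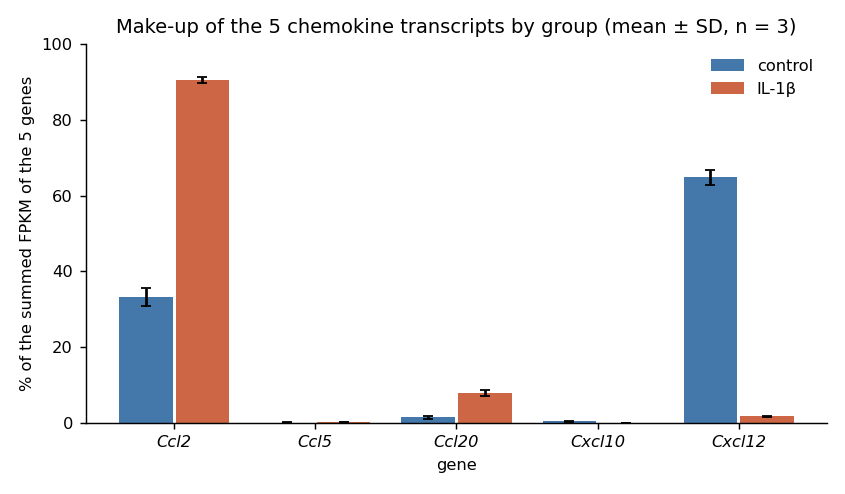
Share of each gene in the summed FPKM of the 5 chemokine genes, in percent, for the control group (blue) and the IL−1β group (orange); bars are the mean and error bars the SD of 3 libraries. Cxcl12 holds 64.8% of the control sum, and Ccl2 holds 90.5% in the IL−1β group.

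In the RefSeq gene order of rat (GRCr8 assembly; the build of the files is not given in the sources used here), most of these genes lie beside relatives. Ccl2 is followed by Ccl7, Ccl11 and Ccl12, Ccl5 by Ccl9, Ccl6 and Ccl3, and Cxcl10 lies between Cxcl11 and Cxcl9. No other chemokine gene was among the 3 protein-coding neighbours on either side of Ccl20 or Cxcl12. The strand setting and the handling of reads that match several genes are not given in the sources used here, so reads shared with such neighbours cannot be told apart.

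Sequences around the start site were taken from RefSeq (GRCr8) as windows from 250 bases before to 50 bases after it. A window was matched by symbol for 3 members, Ccl20, Cxcl10 and Cxcl12. For Ccl2 and Ccl5, which the gene order holds, no window was matched. The windows of Ccl20 and Cxcl10 are shown because they belong to a member that rose steeply and to the member without a detectable change. Capitals mark matches on either strand to the NFκB consensus GGGRNWYYCC, its form with A or T at position 6 of 10. They also mark matches to the AP-1 motif TGANTCA, the interferon-stimulated element core GAAANNGAA and the C/EBP motif TTNNGNAA. In these letters R is A or G, Y is C or T, W is A or T, and N is any base. Positions count back from the start site.
Ccl20, chr9:91836909-91837208 (plus strand): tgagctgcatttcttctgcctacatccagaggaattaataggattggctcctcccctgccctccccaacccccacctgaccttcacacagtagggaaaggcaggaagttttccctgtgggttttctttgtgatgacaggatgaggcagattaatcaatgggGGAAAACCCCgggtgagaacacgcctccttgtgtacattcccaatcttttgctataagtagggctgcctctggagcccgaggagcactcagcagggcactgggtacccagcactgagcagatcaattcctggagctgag
Cxcl10, chr14:15988816-15989115 (plus strand): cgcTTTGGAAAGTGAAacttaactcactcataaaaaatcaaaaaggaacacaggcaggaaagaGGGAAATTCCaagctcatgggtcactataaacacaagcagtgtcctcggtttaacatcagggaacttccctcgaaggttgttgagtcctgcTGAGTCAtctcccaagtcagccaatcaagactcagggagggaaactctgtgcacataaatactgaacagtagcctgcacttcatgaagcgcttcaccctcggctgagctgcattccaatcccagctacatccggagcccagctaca

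Ccl20 held 1 match, to the NFκB consensus, beginning 89 bases before the start site. Cxcl10 held 1 match to each of the 4 motifs, beginning 187 bases before the start for NFκB, 96 for AP-1, 243 for the interferon-stimulated element core and 247 for C/EBP, of which the last 2 overlap. Cxcl12 (chr4:152060531-152060830, plus strand) held none of these letters in its window. Over the 33469 RefSeq windows of the same length, 4.18% held a match to the NFκB consensus, 7.33% to AP-1, 9.71% to the interferon-stimulated element core and 41.3% to C/EBP. With any base allowed at position 6 of the NFκB consensus, a form added after the data were seen, 7.51% of the windows held a match, Ccl20 held the same 1, Cxcl12 held 0, and Cxcl10 held 3, of which those beginning 128 and 127 bases before the start site overlap. Beside these matches stand a rise from 0.370 to 268.0 FPKM for Ccl20 and means of 0.106 and 0.150 FPKM without a detectable change for Cxcl10. A match describes letters in this window only and not a site of binding.

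The patterns of the members over the 6 libraries were compared with those of the other tested genes, as the root-mean-square difference of log2 values after centring each gene on its mean. Cxcl12 had the closest counterpart, ENSRNOG00000009037, at a difference of 0.044, which went from 99.5 ± 4.14 to 336.6 ± 15.7 FPKM (SD, n = 3 each). For Cxcl12, 754 tested genes lay within a difference of 0.5. The gene closest to Ccl5 was ENSRNOG00000049517, at 0.131, which went from 0.257 ± 0.0839 to 10.6 ± 1.89 FPKM. With control values of 0, 0.0501 and 0 FPKM, the log2 pattern of Ccl5 depends on the added constant of 0.1. Its closest gene and the number of genes near it depend on that constant too, and other constants were not tested here. Near counterparts were fewer for the steeper genes, with 34 genes within 0.5 of Ccl5, 9 of Ccl2 and 6 of Ccl20. These identifiers are not paired with names in the sources used here.

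**Figure D4:**
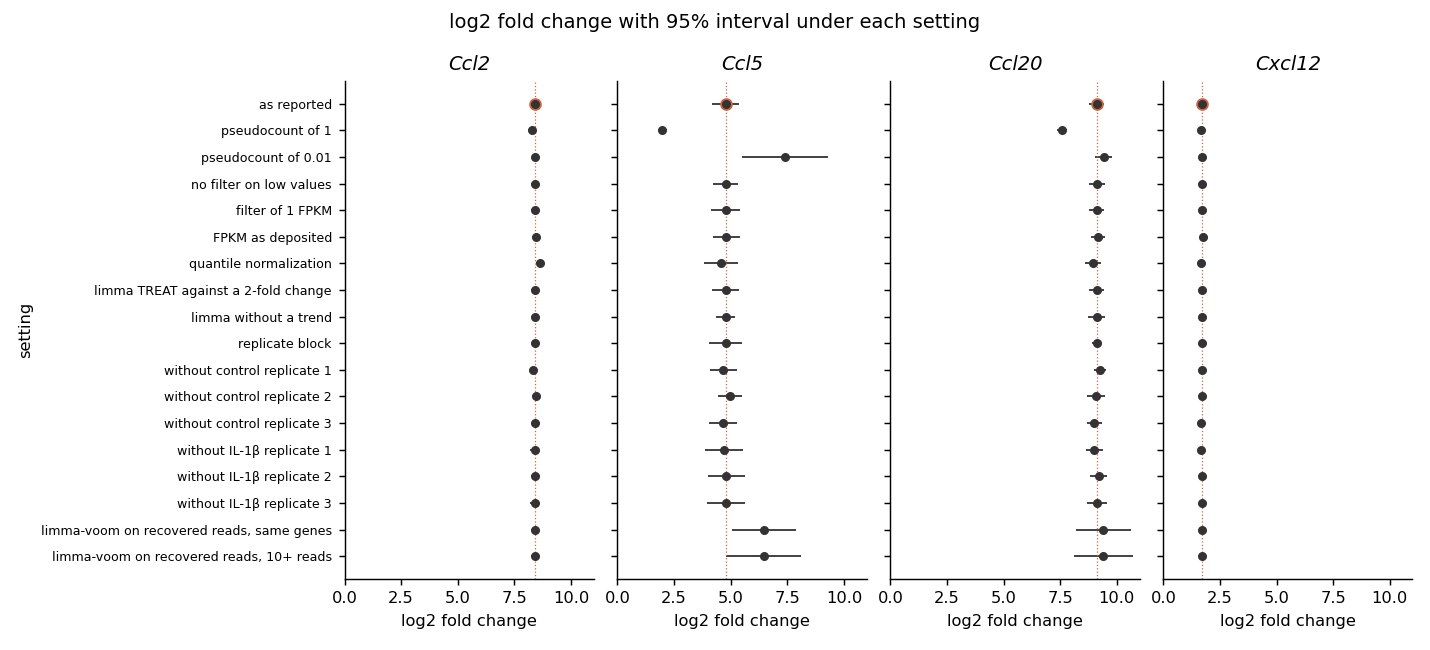
Log2 fold change of each tested chemokine gene (x axis) with its 95% interval, under the reported setting (orange, top) and the 17 alternatives (black, y axis). Ccl2 and Cxcl12 hardly move, whereas Ccl5 spans 1.99 to 7.38 and Ccl20 spans 7.57 to 9.42.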

How the data were processed

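RNA was sequenced from 6 libraries of rat tenocytes, 3 per group, with groups and replicate numbers taken from the sample labels. The authors deposited FPKM values, 1 column per library without pooling. The submitters' processing notes name HISAT2 and featureCounts. The genome build, the annotation and the strand setting are not given in the sources used here. The study's own test, DESeq2, takes counts and was not repeated.

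Whole reads were recovered with Python 3.11.15 (numpy 2.4.6, pandas 2.3.3) by taking relative depths from the commonest ratios of low values and the absolute depth from whole gene lengths, within 0.005 read, and this step was tested on simulated data. It made up between 99.69% and 99.70% of the totals by which the authors divided. FPKM values were divided by median-of-ratios size factors (0.972 to 1.036), a pseudocount of 0.1 was added, and log2 values were fitted across all tested genes with limma 3.58.1 in R 4.3.3 (intensity trend, two-sided, Benjamini-Hochberg adjustment over 12408 genes). Intervals of pooled reads and exact permutation tests came from scipy 1.17.1, and figures from matplotlib 3.10.9. Replicates of a group differed by more than counting noise (chi-square per degree of freedom of 10.8 to 25.4).

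The genes named are the 5 members and the gene nearest in pattern to each tested member, given by identifier for at most 2 genes. The members, the gene lists and the motifs were chosen with earlier results of these data known. The planned lists of chemokine receptors, other chemokines and cell type markers were not run because 0 identifiers were paired with symbols by the reference table, and the protein comparison was not run because no protein sequences were used here. The 17 alternatives include limma-voom on recovered reads of genes with at least 10 reads, which was added after the data were seen.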

Additional observations from a re-analysis of the deposited data

How the results depend on the processing

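Ccl2, Ccl5, Ccl20 and Cxcl12 were called higher with IL−1β in all 17 alternatives (1 chosen after the data were seen). Ccl5 and Ccl20 entered the fits with an FPKM filter only through their IL−1β libraries. Without that filter, limma gave them adjusted p-values of 2.7e-05 and 6.4e-07. The log2 fold change lay between 8.27 and 8.65 for Ccl2 and between 1.65 and 1.76 for Cxcl12, and their highest adjusted p-values were 2.4e-06 and 0.00011. It lay between 1.99 and 7.38 for Ccl5 and between 7.57 and 9.42 for Ccl20, in both cases lowest with a pseudocount of 1 and highest with 0.01, because the control values are near the added constant, and their highest adjusted p-values were 0.00037 and 4.2e-06. Each library was left out in turn with the tested genes held. Cxcl10 could be fitted only without the filter (adjusted p = 0.40) and with limma-voom on genes with at least 10 reads (adjusted p = 0.68). With the replicate block, log2 fold changes were 8.41, 4.77, 9.11 and 1.70 for Ccl2, Ccl5, Ccl20 and Cxcl12 and no call changed. Same-numbered libraries deviated together only weakly (correlations of 0.094, 0.021 and 0.034 across genes). Of all tested genes, 666 were called higher and 412 lower. TREAT against a 2-fold change called 358 and 162, a pseudocount of 1 called 231 lower, and limma-voom on genes with at least 10 reads called 620 lower. Depth limits Cxcl10 in both groups and Ccl5 and Ccl20 in the control group.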
